A study of Mus musculus with 6 samples.

Results

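RNA of regulatory T cells (Treg cells) sorted from B16F10 tumours was compared between the 3 libraries whose titles name cage 2 and the 3 whose titles name cage 1, which together are all 6 libraries of the series. The members were chosen by the cage written in the title alone, and the genotype was kept as a term in the fit. Cage 1 held Control replicates 1 and 2 and Ythdf2 cKO replicate 1, and cage 2 held Control replicate 3 and Ythdf2 cKO replicates 2 and 3. The Control libraries, titled WT Control, have the genotype Foxp3Cre Ythdf2 fl/+, and the cKO libraries Foxp3Cre Ythdf2 fl/fl, so that all 6 carry Cre driven by Foxp3 and at least 1 floxed Ythdf2 allele. B16F10 is a pigmented mouse melanoma line, and its cells had been injected under the skin of the flank. The tumours were digested, cells were enriched on CD4 beads, and live CD45+ CD4+ cells with green fluorescence from Foxp3-GFP were sorted for total RNA sequencing. The labels do not say what a shared cage stands for beyond its number, nor whether each library came from a separate mouse, so the spread between libraries may be partly technical.

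Treg cells are CD4+ T cells that restrain other immune cells and are defined by the transcription factor Foxp3. In B16F10 tumours they lie among melanoma cells, which make the pigment melanin in organelles called melanosomes, and among macrophages, fibroblasts and vessels. The pigment programme is driven by Mitf together with Sox10 and Pax3, and its products include the melanin enzymes Tyr, Tyrp1 and Dct and the melanosome fibril protein Pmel. T cells do not use this programme. A bulk library of sorted cells sums the RNA of every cell in the tube, so fewer cells of a type and less RNA per cell cannot be told apart.

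The libraries held between 5602053 and 13602069 counts in genes, and Ythdf2 cKO replicate 1 was the smallest. The defining Treg and T cell genes were present in all 6 libraries, with Foxp3 at 325 to 608 CPM (counts scaled to library size and composition) and Cd4 at 412 to 718 CPM. Ythdf2, the targeted reader of m6A-marked RNA, was at 124, 102 and 93.1 CPM in Control replicates 1 to 3 and at 90.1, 104 and 104 CPM in cKO replicates 1 to 3. Its levels therefore overlapped between the genotypes, and whole-gene counts do not separate the deleted part from the rest. The genotype names are used below as labels only. Between the cages Ythdf2 had a fitted log2 difference of -0.04 with a standard error (SE) of 0.16 (adjusted p = 0.917). Xist was at 873 to 1743 CPM in all 6 libraries, and the 4 Y-linked genes examined had at most 5 counts in any library.

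In cage 2 the libraries carried far more RNA of pigment cells and somewhat less RNA of T cells than in cage 1. Of 13172 genes tested, 1031 (7.83%) were higher and 485 (3.68%) lower in cage 2 at an adjusted p of 0.05 (edgeR quasi-likelihood test with genotype as a term, Benjamini-Hochberg adjustment). The directions differed in size. The median fold change was 8.17 among the higher genes and 1.57 among the lower ones, and 519 of the higher genes but 6 of the lower genes differed at least 8-fold. The median log2 difference of all genes tested was 0.01. All 3 cage 2 libraries lay above all 3 cage 1 libraries in 1992 genes (15.1%), of which 973 were called higher, and below them in 1602 genes (12.2%), of which 416 were called lower. The plot of cage difference against level shows the long upper tail and the short lower one.

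**Figure D1:**
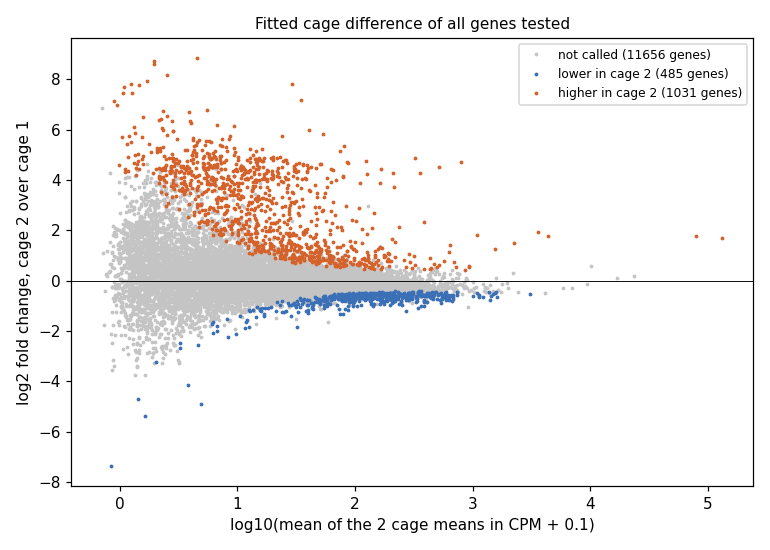
Each point is 1 of 13172 genes, with its mean level on a log10 scale (CPM) along the bottom and its fitted log2 fold change of cage 2 over cage 1 up the side. The 1031 higher genes (orange) spread far upward, whereas most of the 485 lower genes (blue) lie close below 0.

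The called genes had the same direction inside each genotype. For all 1031 higher genes, Control replicate 3 was above the mean of Control replicates 1 and 2, and the mean of cKO replicates 2 and 3 was above cKO replicate 1, on the log2 scale. For all 485 lower genes both differences were below 0. The genes were called from a fit that pools these same differences, so this agreement is no separate support. Across all genes tested the differences within the genotypes correlated at 0.56 (Pearson) and 0.39 (Spearman). Control replicate 3 was the highest library for 791 of the higher genes, and Ythdf2 cKO replicate 1 was the lowest for 822. The counts depended on the libraries kept: the higher genes numbered 606 without Control replicate 2, 660 without cKO replicate 1 and 595 without cKO replicate 3. The lower genes numbered 129, 166, 166, 309 and 65 without Control replicate 2, Control replicate 3, cKO replicate 1, cKO replicate 2 and cKO replicate 3, respectively. Leaving out both Control replicate 3 and cKO replicate 1 would make cage and genotype the same split, and the cage could then not be told apart from the genotype.

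Nearly every pigment cell gene was higher in cage 2. Of 20 listed genes of the melanin pathway, all were tested, 18 were higher in cage 2 (against 7.83% of all genes), none was lower, and their median log2 fold change was 4.31. The summed level of the 20 genes was 487, 668 and 89.6 CPM in the cage 1 libraries (Control replicates 1 and 2, cKO replicate 1). It was 6318, 3126 and 4238 CPM in the cage 2 libraries (Control replicate 3, cKO replicates 2 and 3). The lowest cage 2 sum was thus several times the highest cage 1 sum. Pigment RNA was present in every library, and within cage 1 it was lowest in cKO replicate 1. Leaving out any 1 library kept 16 to 18 of the 18 calls, the fewest without cKO replicate 3.

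Among the regulators of the programme, Mitf was at 25.3 and 26.7 CPM in Control replicates 1 and 2, 5.40 CPM in cKO replicate 1, 346 CPM in Control replicate 3 and 122 and 232 CPM in cKO replicates 2 and 3. Its mean rose from 19.1 ± 11.9 to 234 ± 112 CPM (SD, n = 3 each), a log2 fold change of 4.22 (SE 0.34, adjusted p = 0.000242, edgeR). Sox10, the neural crest factor upstream of Mitf, was at 8.21, 6.97 and 1.15 CPM in cage 1 and at 122, 53.0 and 115 CPM in cage 2 (log2 4.63, SE 0.46, adjusted p = 0.000667, edgeR). Mc1r, the receptor for the melanocyte-stimulating hormone, was at 2.12, 1.83 and 0 CPM in cage 1 and at 35.2, 20.5 and 17.1 CPM in cage 2. For each of these genes every cage 2 library lay above every cage 1 library, as in 15.1% of all genes tested.

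All 3 melanin enzymes were higher. Dct, dopachrome tautomerase, was at 143, 212 and 15.2 CPM in cage 1 (Control replicates 1 and 2, cKO replicate 1) and at 2013, 1003 and 1358 CPM in cage 2 (Control replicate 3, cKO replicates 2 and 3). This was a log2 fold change of 4.72 (SE 0.56, adjusted p = 0.0014, edgeR). Tyrp1 was at 101, 137 and 13.1 CPM in cage 1 and at 1333, 667 and 824 CPM in cage 2 (log2 4.49, SE 0.46). Tyr, the rate-limiting enzyme, had 17.3, 16.7 and 0 CPM in cage 1 and 221, 121 and 136 CPM in cage 2. Control replicate 3 was the highest library and cKO replicate 1 the lowest for all 3 enzymes.

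Melanosome structure and transport genes followed. Pmel was at 37.4, 54.3 and 7.70 CPM in cage 1 and at 545, 252 and 358 CPM in cage 2 (log2 4.26, SE 0.37, adjusted p = 0.000386, edgeR). Mlana rose from 5.42 ± 4.04 to 78.8 ± 35.8 CPM and Gpnmb from 63.8 ± 55.8 to 652 ± 184 CPM (SD, n = 3 each). Mlph, which links melanosomes to their myosin motor, had the smallest p of all genes tested, with 7.51, 6.29 and 1.80 CPM in cage 1 and 119, 44.7 and 54.7 CPM in cage 2 (log2 4.33, SE 0.24, adjusted p = 0.000178, edgeR). The melanosome transporter Slc45a2 rose 15.1-fold and the ion channel gene Trpm1 11.2-fold, whereas Rab38, Oca2, Slc24a5, Tspan10, Bace2 and Gpr143 rose between 8.95-fold and 24.0-fold. Gpr143 was scarce, at no more than 5.50 CPM in any library.

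**Figure D2:**
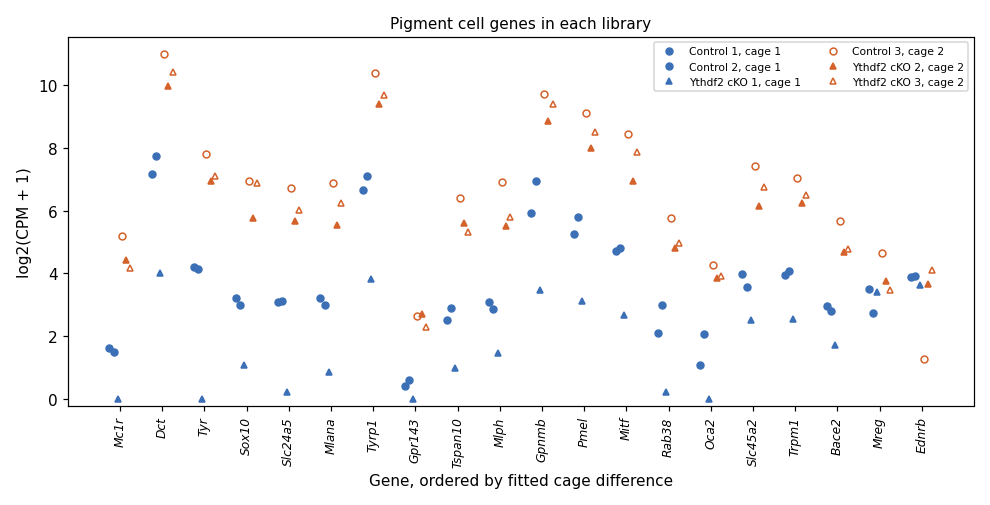
Levels of the 20 pigment cell genes on a log2(CPM + 1) scale, with 1 point per library, circles for Control and triangles for Ythdf2 cKO, blue for cage 1 and orange for cage 2, open symbols for replicate 3. For 18 genes every orange point lies above every blue point, and Mreg and Ednrb at the right are the exceptions.

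The exceptions were Mreg and Ednrb. Mreg, a melanosome transfer protein, was at 10.2, 5.68 and 9.66 CPM in cage 1 and at 24.0, 12.6 and 10.2 CPM in cage 2 (adjusted p = 0.178, edgeR). Ednrb, an endothelin receptor of the melanocyte lineage, was at 13.7, 14.1 and 11.5 CPM in cage 1. In cage 2 it was at 11.7 and 16.3 CPM in the cKO replicates but at 1.42 CPM in Control replicate 3 (log2 -1.25, SE 0.78, adjusted p = 0.354, edgeR). Neither gene separated the cages, but without cKO replicate 1 Ednrb was called lower, at -3.29 on the log2 scale.

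Promoters of some of these genes are shown as a description. Mitf, a member of the group, is known to bind an E-box with the core CATGTG, often as TCATGTG (the M-box). The windows are the 160 bases before the annotated start, from RefSeq on GRCm38.p6, written 5′ to 3′ on the strand of the gene, with each TCATGTG or its reverse complement in capitals.
Tyr (chr7:87493513-87493672, minus strand): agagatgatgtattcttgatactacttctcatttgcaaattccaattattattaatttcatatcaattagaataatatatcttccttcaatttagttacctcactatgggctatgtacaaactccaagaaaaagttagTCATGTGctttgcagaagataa
Tyrp1 (chr4:80834053-80834212, plus strand): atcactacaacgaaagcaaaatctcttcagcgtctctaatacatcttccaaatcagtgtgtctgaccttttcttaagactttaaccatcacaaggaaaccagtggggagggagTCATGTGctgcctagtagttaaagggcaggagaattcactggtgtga
Dct (chr14:118052247-118052406, minus strand): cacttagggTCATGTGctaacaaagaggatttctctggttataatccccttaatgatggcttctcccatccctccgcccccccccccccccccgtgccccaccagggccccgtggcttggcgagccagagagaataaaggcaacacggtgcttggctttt
Trpm1 (chr7:64153675-64153834, plus strand): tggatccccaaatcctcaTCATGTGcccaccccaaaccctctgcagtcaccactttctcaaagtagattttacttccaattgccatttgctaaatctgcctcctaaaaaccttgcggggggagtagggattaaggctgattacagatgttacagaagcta
Mc1r (chr8:123406922-123407081, plus strand): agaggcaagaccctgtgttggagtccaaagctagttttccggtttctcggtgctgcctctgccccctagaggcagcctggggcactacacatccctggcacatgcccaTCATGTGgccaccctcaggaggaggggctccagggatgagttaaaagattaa
The M-box letters began 22 bases before the start in Tyr, 47 in Tyrp1, 151 in Dct, 142 in Trpm1 and 52 in Mc1r, and Dct held a further copy 232 bases before the start. Of the 20 pigment genes 13 had a promoter in the table, and 7 of those 13 (53.8%) held TCATGTG on either strand in the 250 bases before a start. The other 2 were Slc24a5 and Tspan10. Among the 9347 tested genes with a promoter the share was 2.41%, among all genes called higher it was 3.88%, and among those called lower it was 1.97%. For the shorter CATGTG, which every TCATGTG contains, the shares were 61.5% of the pigment genes and 9.14% of the tested genes. These are letter matches, no binding was measured, and a part of Mitf binding in the cage difference was not tested.

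Other genes of the melanoma and neural crest lineage behaved alike. Of 25 listed genes, 21 were tested, 16 were higher and none was lower in cage 2 (against 7.83% of all genes higher), with a median log2 of 3.96. Pax3, the paired-box factor of the lineage, was at 8.57, 7.17 and 0.819 CPM in cage 1 and at 103, 51.7 and 60.9 CPM in cage 2 (log2 4.35, SE 0.39, adjusted p = 0.000427, edgeR). Met, the receptor of hepatocyte growth factor, was at 64.5, 84.8 and 1.97 CPM in cage 1 and at 850, 386 and 565 CPM in cage 2. Sox6 rose 27.7-fold, Sox5 22.8-fold and the adhesion gene Cdh2 9.45-fold. Nes and Mcam, which are also expressed in vessel walls, were highest in cKO replicate 3, at 37.7 and 39.0 CPM, and at 15.5 and 23.7 CPM in Control replicate 3. Without cKO replicate 3 this list had 12 higher genes, and without Control replicate 3 it had 10.

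The other genes with the smallest p in the higher direction were not T cell genes by name. Fam198b rose from 4.76 ± 2.38 to 59.5 ± 28.2 CPM, the clock regulator Bhlhe41 from 4.75 ± 2.15 to 65.5 ± 10.6 CPM and Dmxl2 from 11.3 ± 6.54 to 147 ± 41.1 CPM (SD, n = 3 each). Myo7a, a myosin found in pigment epithelium and hair cells, rose 10.1-fold. Smaller changes were seen in the kinase gene Cdc42bpb (7.48-fold from 30.5 CPM), the semaphorin receptor Plxna1 (6.44-fold from 45.1 CPM), the actin regulator Nckap1 (5.26-fold from 32.5 CPM) and the nuclear envelope gene Syne2 (4.98-fold from 143 CPM). The secreted carbonic anhydrase gene Car6 was at 3.00, 2.57 and 0 CPM in cage 1 and at 128, 50.9 and 59.4 CPM in cage 2. All 8 of these genes and Car6 had an adjusted p of 0.000178 (edgeR).

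For 12 of the higher genes the cage 1 libraries held no count at all, so that a fold change is a lower bound. Against a floor of 3 counts over the 3 cage 1 libraries, Col5a2, a fibrillar collagen chain, was at least 98.6-fold higher, with 29, 25 and 188 counts in Control replicate 3 and cKO replicates 2 and 3. The zinc finger gene Zfp423 was at least 53.4-fold higher (20, 13 and 98 counts in the same order). Klf15, Trim71 and the laminin chain Lama2 were at least 37.5-fold, 35.9-fold and 35.1-fold higher. Col5a2 and Zfp423 drew most of their counts from cKO replicate 3, whereas Lama2 was even, with 19, 31 and 36 counts.

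Treg and T cell genes were lower in cage 2 by modest and similar amounts. Of 34 listed Treg genes 33 were tested, 14 were lower and none was higher, against 3.68% of all genes lower, and all 33 had a fitted difference below 0 (median log2 -0.68). Of 20 T cell genes 14 were lower, none was higher, and all 20 lay below 0 (median log2 -0.61). The summed level of the Treg genes was 12131, 10289 and 11758 CPM in cage 1 and 6261, 8459 and 7235 CPM in cage 2. That of the T cell genes was 7394, 7768 and 8013 CPM in cage 1 and 4499, 6208 and 5105 CPM in cage 2. For both sums every cage 2 library was below every cage 1 library, and Control replicate 3 was the lowest. Single calls were fragile: 2 T cell genes and 3 Treg genes were called without cKO replicate 3, and 2 and 5 without Control replicate 3, while both medians stayed below 0 without any 1 library.

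Foxp3 itself was at 449, 496 and 608 CPM in cage 1 and at 325, 358 and 359 CPM in cage 2, a log2 difference of -0.65 (SE 0.12, adjusted p = 0.00913, edgeR). The Treg transcription factors Ikzf2 and Ikzf4 fell by 0.61 and 1.01 on the log2 scale. Il1rl1, the receptor for interleukin-33 and the lower gene with the smallest p, fell from 461 ± 32.4 to 219 ± 16.8 CPM (SD, n = 3 each, log2 -1.10, SE 0.12, adjusted p = 0.00114, edgeR). The costimulatory receptors Tnfrsf9 and Icos fell from 733 ± 121 to 458 ± 58.6 CPM and from 709 ± 81.5 to 473 ± 17.8 CPM. Itgae, the integrin chain of tissue-resident T cells, was at 411, 239 and 437 CPM in cage 1 and at 132, 174 and 226 CPM in cage 2. In each of these genes every cage 2 library lay below every cage 1 library, as in 12.2% of all genes tested. Il2ra, Ctla4, Tigit and Ccr8, which also mark tumour Treg cells, had fitted log2 differences of -1.06, -0.50, -0.20 and -0.62 and did not pass the test.

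The T cell receptor chain genes Cd3e and Cd3g fell by 0.64 and 0.83 on the log2 scale, and the kinase gene Lck by 0.73. Cd4, used in the sort, was at 559, 718 and 706 CPM in cage 1 and at 412, 548 and 445 CPM in cage 2 (log2 -0.57, SE 0.15, adjusted p = 0.039, edgeR). Ptprc, which encodes CD45 and was also used in the sort, was at 1818, 1829 and 2111 CPM in cage 1 and at 1129, 1555 and 1241 CPM in cage 2. Further lower genes with the smallest p were the T cell transcription factor gene Bcl11b (506 ± 52.0 to 266 ± 36.1 CPM), Ptpn7, Rab11fip1, Nabp1, the cytokine signalling inhibitor Cish, the integrin activator Fermt3 and Rcsd1, which fell by between 0.81 and 1.02 on the log2 scale. Ccr4, a chemokine receptor of Treg cells, fell from 120 ± 9.61 to 55.8 ± 7.83 CPM (SD, n = 3 each), or by 1.18 on the log2 scale.

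**Figure D3:**
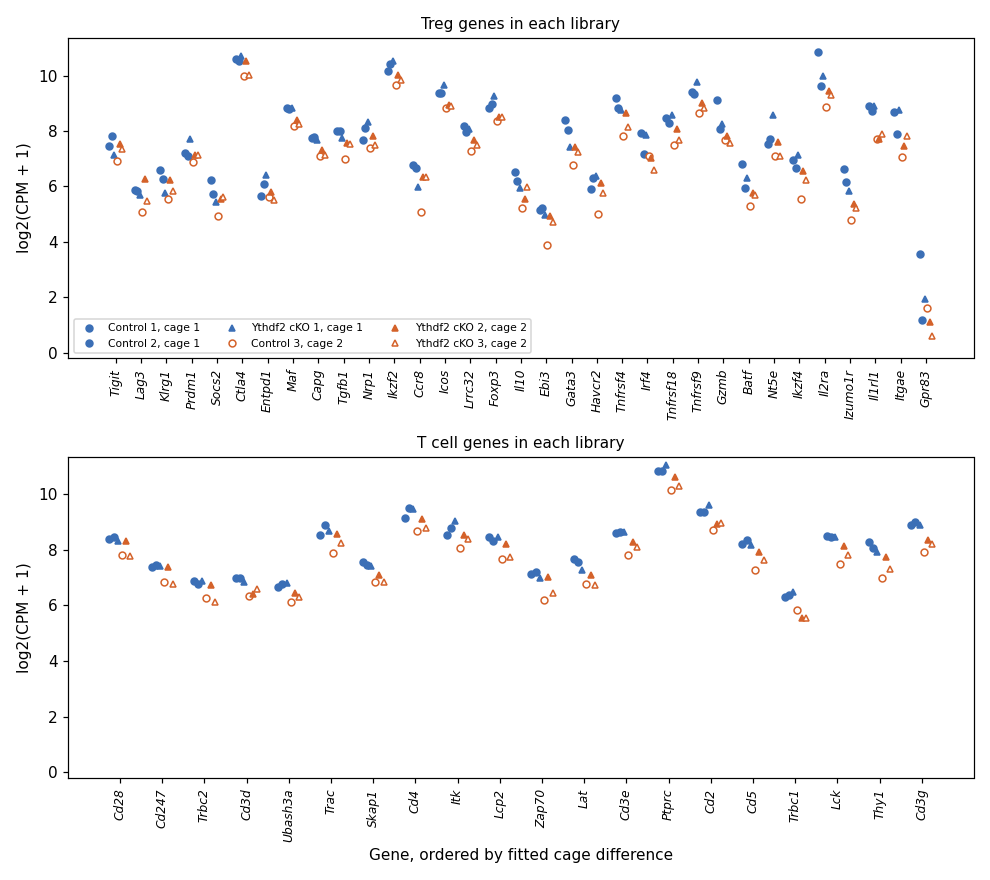
Levels of the 33 Treg genes (top) and 20 T cell genes (bottom) tested, on a log2(CPM + 1) scale, with the symbols of the pigment plot (blue for cage 1, orange for cage 2). Orange points lie mostly just below the blue ones, by far less than in the pigment genes.

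Because the T cell genes moved together, the comparison was repeated with libraries scaled to the summed counts of the 20 T cell genes, a choice made after the data were seen. The median log2 difference of all genes then moved from 0.01 to 0.65. On that scale 4322 genes (32.8%) were higher and 11 (0.0835%) lower in cage 2. All 1031 higher genes stayed higher, and 10 of the 485 lower genes stayed lower. The Treg list, which shares no gene with the T cell list, had a median of -0.04 with none of 33 genes called. Foxp3 was at -0.02 and Il1rl1 at -0.46 (adjusted p = 0.0611, edgeR) on this scale. Ccr4 (-0.56, adjusted p = 0.0286, edgeR), Tnfsf11 (-0.79, adjusted p = 0.0327), Rnu2-10, Gpld1, Sp6 and Jmjd7 were among the 11 lower genes, and the pigment median rose to 4.99. The pigment cell RNA described above moved against the T cell genes across the cages, and its part in their decrease was not tested.

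Some genes of other tumour cell types were higher in cage 2 as well, but not in the same libraries for each type. Of 19 macrophage genes 14 were tested, 7 were higher and 1, Ccr2, was lower, against 7.83% and 3.68% of all genes, and the median log2 was 3.32. The summed level of the 19 genes overlapped between the cages, at 488 to 680 CPM in cage 1 and 502 to 981 CPM in cage 2. Ccr2, which is also on the homing list below, made up most of that sum in every cage 1 library. It had 5043 and 7285 counts in Control replicates 1 and 2 and 4077 in cKO replicate 1. The overlap therefore does not describe the other members. Apoe, which both macrophages and melanoma cells express, was at 22.8, 49.5 and 3.11 CPM in cage 1 and at 285, 137 and 162 CPM in cage 2 (log2 3.86, SE 0.51, adjusted p = 0.00219, edgeR). The mannose receptor gene Mrc1 was at 50.02 and 22.4 CPM in Control replicate 3 and cKO replicate 3 but at 2.51 CPM in cKO replicate 2, within the cage 1 range of 0 to 6.09 CPM. Lyz2, the lysozyme gene of myeloid cells, was at 90.7 and 41.7 CPM in Control replicate 3 and cKO replicate 3 but at 6.56 CPM in cKO replicate 2, within the cage 1 range of 2.46 to 20.2 CPM. Arg1, the arginase gene, was high in Control replicate 3 alone, at 23.4 CPM. Its 0.868 and 2.39 CPM in cKO replicates 2 and 3 lay within the cage 1 range of 0 to 3.89 CPM. The scavenger receptor gene Msr1 was too scarce to be tested, with 137 counts in Control replicate 3, 32 in cKO replicate 3 and at most 4 in any other library. Without Control replicate 3 only 1 of the higher macrophage genes remained called, beside Ccr2 as lower. Without cKO replicate 1 only 1 higher gene remained called, and Ccr2 did not.

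Fibroblast and matrix genes were highest in cKO replicate 3 and Control replicate 3. Of 17 listed genes 10 were tested, 7 were higher, and 1, Thy1, which is also on the T cell list, was lower, again against 7.83% and 3.68% of all genes (median log2 4.14). Sparc, a matrix protein also made by melanoma cells, was at 8.48, 6.16 and 1.15 CPM in cage 1 and at 165, 66.4 and 200 CPM in cage 2 (log2 5.13, SE 0.55, adjusted p = 0.000889, edgeR). Fibronectin, Fn1, was at 42.0, 53.8 and 7.04 CPM in cage 1 and at 460, 83.1 and 325 CPM in cage 2. Postn and Pdgfrb were at 35.8 and 27.2 CPM in cKO replicate 3 and at no more than 8.68 CPM elsewhere. Without Control replicate 3, 2 of these genes were called, and without cKO replicate 3, 3 were.

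Counts of vessel genes came mostly from cKO replicate 3. Kdr, the main receptor for vascular endothelial growth factor, had 643 counts there and 0, 7, 6, 2 and 0 counts in Control replicates 1 to 3 and cKO replicates 1 and 2. Cdh5, the cadherin of endothelial junctions, had 385 counts there and at most 8 elsewhere, and Flt1 had 276 there and at most 26 elsewhere. Acta2, the smooth muscle actin gene, had 1045 counts in cKO replicate 3 and at most 18 in any other library, and Col6a1 and Col6a2 had 387 and 553 counts there. Most of these genes did not pass the filter on low counts, since it asks for several libraries. Only Vwf of the 3 endothelial genes tested was called, against 7.83% of all genes higher, a call lost without Control replicate 3 or cKO replicate 1. The summed level of the 11 listed endothelial genes overlapped between the cages, at 80.8 to 101 CPM in cage 1 and 59.1 to 263 CPM in cage 2. Nearly all of the cage 1 sum was Pecam1, described below, so the overlap does not describe the other members. Vwf, the clotting factor gene of endothelium, was at 0.530, 1.56 and 0 CPM in cage 1 and at 14.5, 2.70 and 19.0 CPM in cage 2, so that Control replicate 3 held it as well. Pecam1, an adhesion gene of endothelium and leukocytes, was at 78.5, 79.4 and 100.1 CPM in cage 1 and at 48.8, 51.2 and 79.5 CPM in cage 2, and did not pass the test.

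The 2 other cage 2 libraries had features of their own. In cKO replicate 2 the cornified envelope gene Ivl had 245 counts and was at 0 in the other 5 libraries, while the keratin gene Krt14 had 14 counts there and Krt5 none. The red cell genes Hbb-bs and Alas2 were highest in the same library, at 63.7 and 15.9 CPM, against 13.3 CPM or less and 6.02 CPM or less elsewhere. Of 9 erythroid genes tested 2 were higher, against 7.83% of all genes, and none without Control replicate 2 or 3 or without cKO replicate 1 or 2. None of 7 B cell genes and none of 3 neutrophil genes was called in either direction. Of 5 dendritic cell genes tested 1, Fscn1, was higher and none was lower, against 7.83% and 3.68% of all genes. Their median log2 was -0.64, with 2 genes above 0 (Fscn1 at 4.47 and Siglech, not called, at 3.17) and 3 below. Of 7 genes of MHC class II, found on antigen-presenting cells, H2-Aa and H2-Ab1 were higher, against 7.83% of all genes. H2-Aa was at 11.9, 11.03 and 3.93 CPM in cage 1 and at 36.8, 15.3 and 25.8 CPM in cage 2.

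**Figure D4:**
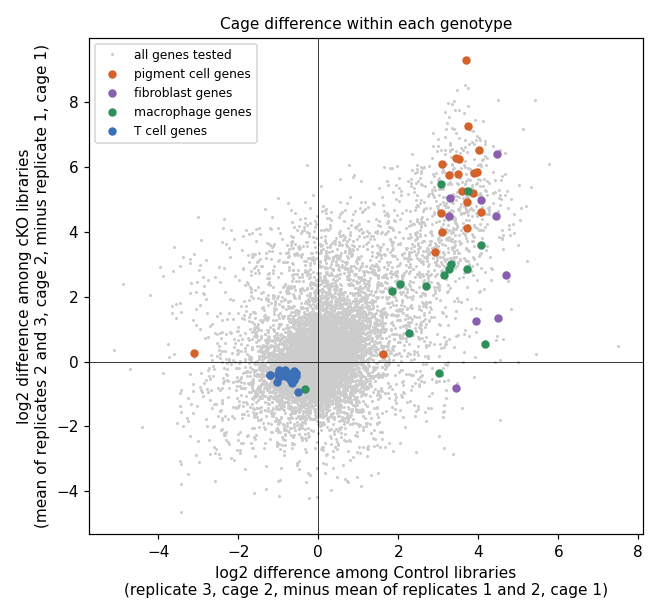
Each point is a gene, with the log2 difference between Control replicate 3 and the mean of Control replicates 1 and 2 along the bottom and the difference between the mean of cKO replicates 2 and 3 and cKO replicate 1 up the side. Pigment genes other than Ednrb and Mreg lie to the upper right in both genotypes, T cell genes just below 0 in both, and some macrophage and fibroblast genes are far to the right but near 0 on the cKO axis.

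RNA of the mitochondrial genome took a larger share of cage 2 libraries. Mitochondrial ribosomal RNA made up 12.02%, 11.1% and 9.97% of gene counts in cage 1 and 42.6%, 18.0% and 19.2% in cage 2 (Control replicate 3 first). The cages did not overlap, and an exact two-sided permutation test of the 3 against 3 libraries gave p = 0.1, the smallest it can give, or 0.2 after adjustment over 8 library measures. The share of the 13 mitochondrial protein genes was 0.952%, 0.718% and 0.609% in cage 1 and 2.49%, 1.31% and 1.34% in cage 2. Of 9 mitochondrial protein genes tested 6 were higher, against 7.83% of all genes. Among the 6 were mt-Cytb of complex III (1617 ± 400 to 5584 ± 3789 CPM), mt-Nd4 of complex I (log2 1.82, SE 0.22) and mt-Co1 of complex IV (log2 1.79, SE 0.24). All 6 stayed called without any 1 library. The 50 genes with the most counts took 25.3% to 27.6% of a cage 1 library and 31.8% to 54.5% of a cage 2 library. The share of records ambiguous between genes was 2.14%, 2.16% and 2.21% in cage 1 and 1.43%, 1.70% and 1.82% in cage 2, also without overlap and with the same p. Gene counts, genes detected, and the shares of reads in no gene or aligned to several places overlapped between the cages.

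Nuclear genes of energy metabolism were called in part. Of 16 glycolysis genes 9 were higher, none was lower and 7 were not called, against 7.83% of all genes higher (median log2 0.52), among them the hexokinase gene Hk2, at 100, 86.6 and 26.9 CPM in cage 1 and 284, 166 and 166 CPM in cage 2 (log2 2.08, SE 0.22, adjusted p = 0.000922, edgeR). Pgk1 and Eno1 rose 1.96-fold and 1.86-fold. Of 30 nuclear genes of oxidative phosphorylation 6 were higher and 24 were not called, 6 of the 30 having a fitted difference below 0. The 6 included Uqcrq of complex III (2.50-fold) and the ATP synthase gene Atp5b (1.67-fold). These modest changes depended on the scaling: with libraries scaled by their total counts alone, which moved the median of all genes to -0.32, the list of glycolysis kept 1 call and that of oxidative phosphorylation none. The summed pigment genes moved with both lists across the cages (89.6 to 668 CPM in cage 1, 3126 to 6318 CPM in cage 2), and their part in these changes was not tested.

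Of 18 genes induced by low oxygen 5 were higher, against 7.83% of all genes, and the 3 largest changes were Car9, Vegfa and P4ha2. The angiogenic factor gene Vegfa was at 26.1, 21.7 and 6.06 CPM in cage 1 and at 131, 85.4 and 116 CPM in cage 2 (log2 3.12, SE 0.34, adjusted p = 0.000922, edgeR). The carbonic anhydrase gene Car9 was at 3.27, 6.23 and 0 CPM in cage 1 and at 61.4, 27.5 and 33.6 CPM in cage 2, and the collagen hydroxylase gene P4ha2 rose 16.9-fold. Bnip3, a mitophagy gene, rose 2.36-fold. The median of the list was 0.47 on the log2 scale, and 13 genes were not called.

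Stress and lipid genes were higher in part, against 7.83% of all genes. Of 11 heat shock genes 4 were higher, with the mitochondrial chaperonin gene Hspd1 at 2.51-fold. Of 15 genes of the unfolded protein and amino acid response 3 were higher, with asparagine synthetase, Asns, at 4.06-fold. Of 16 cholesterol synthesis genes 4 were higher, with Sqle at 2.15-fold. No gene of these 3 lists was lower. The calls were fragile: with total gene counts only, the heat shock and unfolded protein lists kept 1 call each and the cholesterol list none, and without cKO replicate 1 or without cKO replicate 3 each of the 3 lists kept 1.

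Cell cycle genes were set apart mainly by cKO replicate 1. Of 26 genes of the G2 and M phases 6 were higher, against 7.83% of all genes (median log2 0.80), and cKO replicate 1 was the lowest library for 23 of the 26. The cytokinesis gene Anln was at 24.6, 23.8 and 7.53 CPM in cage 1 and at 59.2, 42.7 and 74.7 CPM in cage 2, and Cenpf was at 147, 128 and 48.3 CPM and at 184, 239 and 186 CPM. Without cKO replicate 1 no gene of this list was called and its median was 0.04, and without Control replicate 3 the number called was 15. Of 24 S phase genes 1 was higher, and of 47 histone genes 1 was higher and 1 lower, shares below the 7.83% and 3.68% of all genes. Without Control replicate 3 the histone list had 6 higher genes, and without cKO replicate 1 it had 4 lower.

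**Figure D5:**
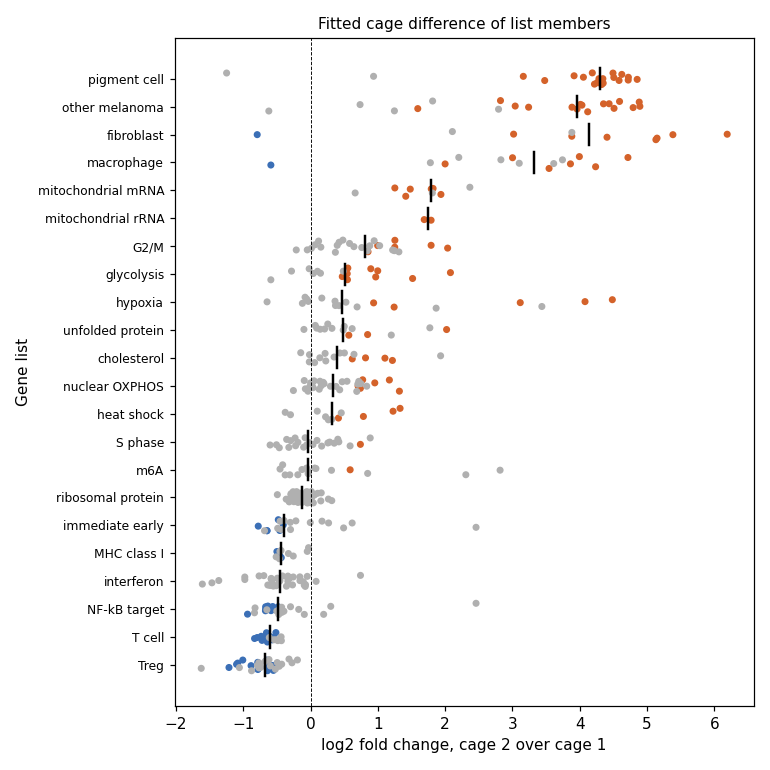
Fitted log2 fold change of cage 2 over cage 1 for the tested members of 22 gene lists, with orange for genes called higher, blue for genes called lower, grey for the rest, and a black bar at each list median. Pigment, melanoma, fibroblast and macrophage genes reach far to the right, and the T cell and Treg lists lie to the left of the dashed median of all genes.

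The NF-kB pathway carries signals of the T cell receptor and TNF receptors. Of 25 of its targets and members tested, 9 were lower in cage 2, against 3.68% of all genes, none was higher, and 16 were not called. The median log2 was -0.48, and 3 of the 25 had a fitted difference above 0. When scaled to T cell genes the median was 0.15, against 0.65 for all genes. On that scale 3 were higher, against 32.8% of all genes, and none was lower, against 0.0835%. Nfkbia, the inhibitor induced by the pathway, was at 752, 712 and 827 CPM in cage 1 and at 450, 565 and 500 CPM in cage 2 (log2 -0.67, SE 0.12, adjusted p = 0.00754, edgeR). The subunit gene Nfkb1 and the regulator Nfkbiz fell by 0.67 and 0.56 on the log2 scale, and Gadd45b by 0.94. Without cKO replicate 1 or without cKO replicate 3, 2 genes of the list were lower.

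Of 20 immediate early genes 6 were lower, against 3.68% of all genes, with Junb at 1740 ± 151 CPM in cage 1 and 1079 ± 152 CPM in cage 2 (SD, n = 3 each), Zfp36 at -0.65 and Jund at -0.46 on the log2 scale. The list median was -0.40, and 0.23 with T cell scaling, against 0.65 for all genes on that scale. The list had 1 lower gene without cKO replicate 3 and 2 without cKO replicate 1 or without cKO replicate 2. Of 38 interferon-induced genes none was called. Of 11 genes of MHC class I 3 were lower, against 3.68% of all genes, but none of the 3 without Control replicate 2 or 3 or without cKO replicate 1 or 3. Among 11 helper cytokine genes 3 were lower, against 3.68% of all genes: Il1rl1, Tnfsf11, which encodes the ligand of RANK (41.0 ± 1.99 to 15.6 ± 2.44 CPM), and the growth factor gene Areg (523 ± 98.8 to 288 ± 34.2 CPM). Of 19 genes of chemokine receptors and homing Ccr4, Ccr2, Itgb7 and Selplg were lower, and of 14 genes of resting T cells S1pr1 and Lef1, against the same 3.68% of all genes. Without Control replicate 2, cKO replicate 1 or cKO replicate 3, 1 of these homing genes stayed lower. Without Control replicate 3, cKO replicate 1 or cKO replicate 3 neither S1pr1 nor Lef1 was called. Of 9 cytotoxic genes tested, 4 had a fitted difference above 0 and only the CD8 chain gene Cd8b1 was lower, against 3.68% of all genes (14.6 ± 7.41 CPM in cage 1 and 6.28 ± 1.16 CPM in cage 2, SD, n = 3 each). Its call held only without Control replicate 3 when 1 library was left out.

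Of 16 genes that write, read or erase m6A, Fto, a demethylase, was higher in cage 2 (54.9 ± 4.48 to 82.1 ± 8.29 CPM, adjusted p = 0.0447, edgeR), and none was lower. This was 1 of 16 genes, against 7.83% of all genes, and the call was lost with total gene counts only, with cage as the only term and on leaving out any 1 library other than cKO replicate 2. With T cell scaling 6 of the 16 were higher, near the share of 32.8% of all genes on that scale. None of 49 ribosomal protein genes was called (median log2 -0.13). With T cell scaling 26 were higher, against 32.8% of all genes, but their median of 0.51 lay below the 0.65 of all genes. Xist, a nuclear RNA, was at 1682, 1554 and 1743 CPM in cage 1 and at 873, 1482 and 1305 CPM in cage 2 (log2 -0.61, adjusted p = 0.037, edgeR). Its call was lost with total gene counts only and with cage as the only term. It was also lost without Control replicate 2, Control replicate 3 or cKO replicate 3.

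The largest decreases were in scarce transcripts. The small nuclear RNA gene Rnu2-10 was at 3.89, 3.52 and 13.1 CPM in cage 1 and at 0.158, 0.482 and 1.14 CPM in cage 2. Gpld1, a phospholipase that cleaves membrane anchors, was at 21.3, 7.65 and 12.1 CPM in cage 1 and at 3.16, 2.51 and 2.60 CPM in cage 2, and the transcription factor gene Sp6 fell from 7.91 ± 3.72 to 1.20 ± 0.247 CPM. Jmjd7 and Pard3b were at no more than 0.934 CPM in any cage 2 library and at no more than 6.06 CPM in cage 1. Overlapping genes cannot be separated here, since the strand setting of the counting is not given in the sources used here.

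Whether the cage difference itself differed between the genotypes was tested with an interaction term. It passed in 6 of 13172 genes (0.0456%, edgeR), and 1882 genes had an unadjusted p under 0.05. Tyr and Met were among the 6, with larger differences among cKO libraries, where cKO replicate 1 had no count of Tyr and 1.97 CPM of Met. Eps8, an actin-binding protein, had 34.3, 38.03 and 409 CPM in Control replicates 1 to 3 and 3.28, 255 and 263 CPM in cKO replicates 1 to 3, and the vesicle gene Syt4 had 19.6, 27.7 and 298 CPM and 0.328, 183 and 209 CPM. The pattern in these 4 genes was a deeper trough in cKO replicate 1. The remaining pair, Gm10800 and Gm24270, was high in Control replicate 3 alone.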

How the data were processed

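Each library came as 1 deposited table of unnormalized read counts per gene. The submitters' processing notes name Trimmomatic 0.39 for trimming, HISAT2 2.1.0 for alignment, the build mm10 and HTSeq for counting, and the labels' protocols name version 2 of the SMARTer stranded kit for total RNA. Annotation release and strand setting: not given in the sources used here. Spike-in rows (at most 1 count per library) were left out, as were records in no gene (24.6% to 35.8% of all), ambiguous (1.43% to 2.21%) or aligned to several places (9.22% to 12.9%). Symbols come from GENCODE M21, which matched 54409 of 54446 gene rows.

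Cages and genotypes came from the titles and characteristics. Genes were filtered with filterByExpr (minimum count 10, minimum total 15) and scaled by TMM. All 6 libraries entered 1 quasi-likelihood fit of edgeR 4.0.16 (R 4.3.3) with genotype and cage as terms, with Benjamini-Hochberg adjustment and a threshold of 0.05. CPM use the TMM factors, which were 0.713 in Control replicate 3 and 1.04 to 1.09 in the others. The SE is approximate, the log2 fold change divided by the root of the F statistic. Differences within a genotype use log2 CPM, prior count 2. Every pair of libraries differed by more than sampling noise (lowest chi-square per degree of freedom 17.4). For library measures an exact two-sided permutation over libraries was used. The fit was tested on simulated data. DESeq2 1.42.0 and limma 3.58.1 served as alternatives.

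The comparison, the 36 gene lists and the tests were chosen with earlier results of these data known. Named were the 12 genes with the smallest p and the 5 largest changes in each direction (clone-like names, pseudogenes and receptor segments passed over), up to 5 members with the smallest p per list described, all pigment genes and the sort markers. Further list members, among them the scarce vessel, macrophage and keratinocyte genes, were chosen after their values were seen. The genotypes share replicate numbers, but number 2 lies in different cages, so the numbers were not taken as pairs.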

Additional observations from a re-analysis of the deposited data

Results flagged for a closer look

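In 6 genes the cage difference differed between the genotypes by the test of the interaction itself (edgeR, adjusted p between 0.00959 and 0.0456). The values are the log2 difference among cKO libraries minus that among Control libraries. They were 9.60 for Tyr, 5.52 for Syt4, 4.40 for Met and 2.80 for Eps8, all of which were lowest in cKO replicate 1. Tyr had no count in that library, so its value depends on the prior count and is no bound. They were -5.17 for Gm10800 and -3.35 for Gm24270, a predicted gene and a predicted microRNA gene. Gm10800 was at 603 CPM in Control replicate 3 and at 12.7 to 62.0 CPM in the other 5 libraries, and Gm24270 at 299 CPM and 20.8 to 26.4 CPM. In each case the estimate rests on a single library in 1 arm, Control replicate 3 or cKO replicate 1.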

How the results depend on the processing

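Of the 117 called genes named here, all kept their direction under each alternative other than T cell scaling in which they were tested except Lyz2 (-0.55) and Pdgfrb (-0.42), which turned under the replicate block. With T cell scaling, chosen after the data were seen, 7 lower genes turned: Ccr2 (0.049), Cd4 (0.059), Ikzf2 (0.021), Jund (0.17), Nfkbiz (0.067), Selplg (0.16) and Xist (0.022). Calls were kept less often than directions. Of the 117 genes 114 stayed called with DESeq2, 86 with cage as the only term, 81 with T cell scaling and 24 under the replicate block. Without cKO replicate 1 73 stayed called, and without Control replicate 3 or without cKO replicate 3 78 did. The counts of 1031 higher and 485 lower genes became 1550 and 799 with DESeq2, 646 and 732 with total gene counts only, 46 and 0 with the replicate block beside genotype and cage, 473 and 57 at an adjusted p of 0.01, and 4322 and 11 when scaled to T cell genes. The lower genes numbered 873 with no filter beyond 1 count, 146 with cage as the only term, 890 at an adjusted p of 0.1 and 66 when also at least 2-fold. Leaving out 1 library gave 595 to 919 higher and 65 to 376 lower genes. The 6 interaction genes became 64 with DESeq2 and 30 with total gene counts only. With the replicate block 1 residual degree of freedom was left, and 822 genes had an unadjusted p under 0.05. The deviations of same-numbered libraries correlated at 0.41, -0.24 and 0.55 for numbers 1 to 3, and number 2 spans both cages. Under the block 9 of the 18 pigment calls were kept.

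Of the 36 list medians, 14 turned sign with T cell scaling, and 7 that lay within 1 SD of 0 (libraries within cages) turned under at least 1 other alternative: those of the ribosomal, histone, S phase, cytotoxic, neutrophil, keratinocyte and m6A lists. Farther from 0, those that turned were the medians of the heat shock list with total gene counts only (-0.019), and, under the block, the medians of resting T cells (0.094), macrophages (-0.70), dendritic cells (0.0090) and B cells (-0.015). The dendritic median of -0.64 also turned with no filter (1.93) and without Control replicates 1, 2 or 3 (1.56, 1.20, 3.73) or cKO replicates 2 or 3 (1.19, 0.31), and was -0.67 without cKO replicate 1, since other members were tested. The interferon median (-0.46) turned too and ranged from -0.80 without Control replicate 3 to 0.032 without cKO replicate 1. Genes not called turned as well: Ythdf2 (0.18 under the block, 0.06 and 0.23 without Control replicates 1 and 3, -0.29 without cKO replicate 1) and Ednrb (0.31 without Control replicate 3, -3.29 without cKO replicate 1). Genes under about 10 counts in 3 libraries could not be tested. The 3 libraries per cage limit a permutation test to p = 0.1.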
